A study of Drosophila melanogaster with 12 samples.

Results

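H3K36me3 was measured over the repeats of heterochromatin in Drosophila melanogaster S2 cells, an established line of embryonic origin, after RNAi against KDM4A or against GFP as the control. All 199 rows of the authors' H3K36me3 enrichment table were taken, each a repeat family or a part of one. They are 199 of the 402 rows in the tables of both marks of the study, and the H3K9me3 table holds the other 203. Each row gives 1 mean enrichment for KDM4A RNAi and 1 for GFP RNAi. By the type column of the table the rows are 118 parts of LTR retrotransposons, 36 non-LTR retrotransposons, 21 DNA transposons, 14 tandem repeats, 5 histone genes, 4 telomeric retrotransposons and 1 row of ribosomal DNA (rDNA).

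The cells of both groups were grown at 25 °C and carried double-stranded RNA, delivered with DOTAP, for 5 days before fixation for 10 min in 1% paraformaldehyde. Chromatin was precipitated with 5 µg of an antibody to H3K36me3. The labels list 2 libraries for KDM4A RNAi and 2 for GFP RNAi, and do not say whether these were separate cultures. The table holds their means alone, so every difference below compares 1 value with 1 value, has no replicate error and carries no test. The number of reads behind a value is unknown, and the tables do not show how far KDM4A itself was depleted.

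H3K36me3 is laid down over the bodies of transcribed genes by a methyltransferase that travels with elongating RNA polymerase. KDM4A is a Jumonji-domain demethylase that in flies removes methyl groups from this lysine and binds HP1a, the protein that reads H3K9 methylation in heterochromatin. Heterochromatin is built largely of satellites, which are short units in long tandem arrays, and of transposons, most of them silenced.

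The deposited H3K36me3 profiles of the 2 treatments were much alike. Enrichment over the 199 rows ran from 0.037 to 3.56 in GFP RNAi cells, with a median of 0.898, and from 0.060 to 3.55 in KDM4A RNAi cells, with a median of 0.844. Spearman's rho of the levels was 0.97 across the 199 rows, as a description, since all rows of a column come from the same libraries. Enrichment is expressed below as the linear ratio the authors deposited, and a difference as log2 of the KDM4A RNAi mean over the GFP RNAi mean, called the log2 ratio. The median log2 ratio was -0.05 and its SD over rows 0.18.

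**Figure D1:**
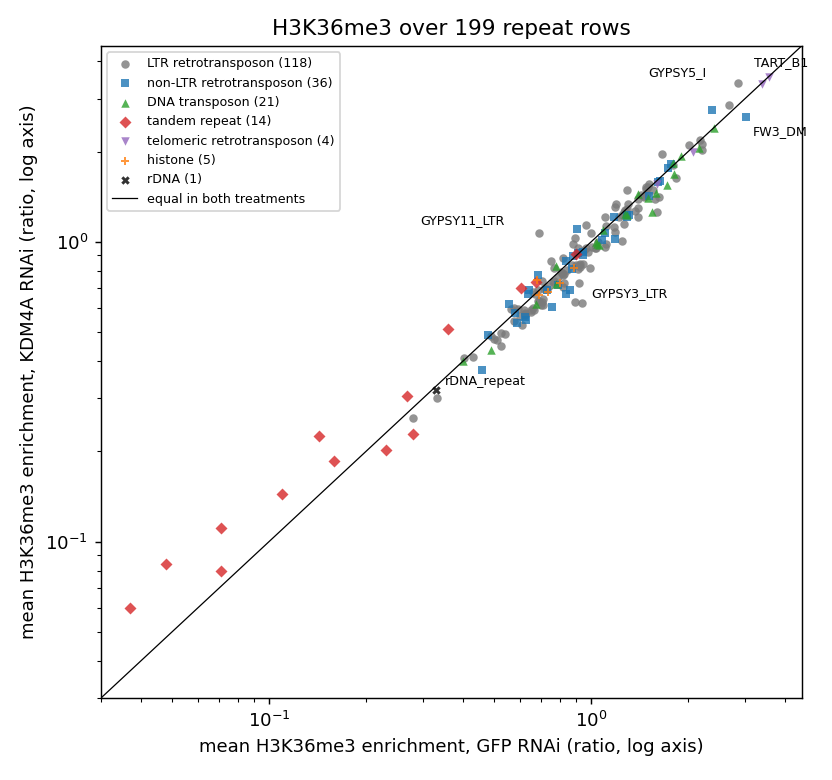
Mean H3K36me3 enrichment of each of the 199 rows in GFP RNAi cells (x, ratio, log axis) against KDM4A RNAi cells (y, ratio, log axis), with 1 point per row, colour and symbol by repeat type, and the line of equal values. Most rows lie close to the line, and most tandem repeats, at the lower left, lie above it.

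Most differences were small. KDM4A RNAi was above GFP RNAi in 67 rows (33.7%) and below in 130 (65.3%), and 2 rows, HOBO and R2_DM, had the same value in both. The direction of this majority depends on how the 2 columns are scaled, which is not stated. With each column centred on its own median over all 199 rows, as done throughout, the numbers became 124 and 75. That shift rests on which rows set the medians. These were 0.898 and 0.844 over all rows, but 0.919 and 0.916 without the tandem repeats. Centring on the latter would move the ratios much less. A difference of less than 1.1-fold either way was seen in 134 rows. At least 1.1-fold higher were 24 rows (12.1%) and at least 1.1-fold lower 41 (20.6%). At 1.2-fold the numbers were 8 (4.02%) and 12 (6.03%), and after centring 19 and 2. At 1.5-fold they were 5 (2.51%) and 0 (0%).

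The 8 rows at least 1.2-fold higher were 6 satellites, the terminal repeat of GYPSY11 and R1-2_DM, related to the rDNA-inserting retrotransposon R1. The 12 that were at least 1.2-fold lower were 6 rows of Gypsy-clade LTR elements (GYPSY3_LTR, GYPSY9_I, INVADER5_I, ACCORD2_LTR, GYPSY10_I and GTWIN_LTR), 4 non-LTR rows (BS4_DM, G3_DM, G7_DM and ALUII_DM), the DNA transposon S2_DM and the 1.688 satellite. As deposited, the rows that were higher came mostly from one type and those that were lower from 4. After centring the 19 higher rows were 9 satellites, 7 LTR rows and 3 non-LTR rows, and the 2 lower rows were GYPSY3_LTR and GYPSY9_I.

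**Figure D2:**
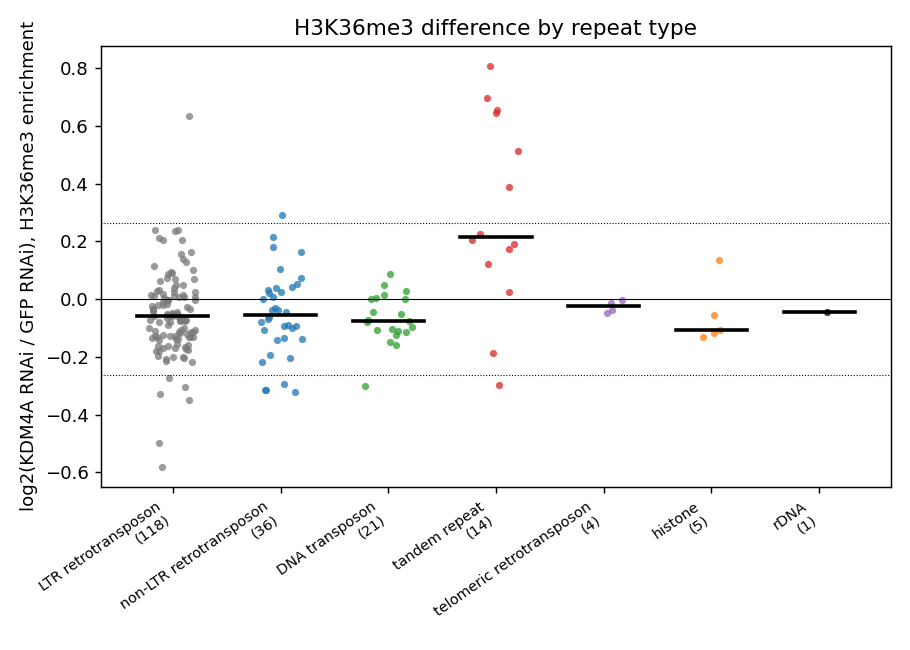
Log2 ratio of H3K36me3 enrichment, KDM4A RNAi over GFP RNAi (y), for every row by repeat type (x, number of rows in brackets), with the median of each type as a bar and dotted lines at 1.2-fold. The tandem repeats have a median of 0.21, and the medians of the other 6 types lie between -0.11 and -0.03. Of these 6, all but that of the histone genes turn positive when the columns are centred on their medians over all rows. Centring on medians taken without the tandem repeats would move the ratios much less.

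The satellites had the least H3K36me3 of any type and, with no pseudocount, 4 of the 5 largest relative increases in the table. As the mean of both treatments, 9 of the 14 tandem repeats were under 0.268, the lowest value among the remaining rows. Their names, where made of bases, are the repeated unit itself as the table writes it, with the strand not stated. Among 12 such rows the unit ran from 5 to 12 bases and from 0% to 66.7% G+C.

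Of 5 units built of A and G alone, all but AAGGAG had little of the mark. AAAAG was at 0.071 in GFP RNAi cells and 0.080 in KDM4A RNAi cells. AAGAG, an abundant pericentromeric satellite, was at 0.110 and 0.144. AAGAGG was at 0.143 and 0.225. All 5 had more in KDM4A RNAi cells, and their log2 ratios ran from 0.02 to 0.65. Of the 7 units that hold a pyrimidine 6 had more, and the log2 ratios of the 7 ran from -0.19 to 0.70. Both kinds of unit thus went mostly the same way. Of all 14 tandem repeats 12 were higher, as deposited and after centring. Over all 199 rows 67 were higher as deposited and 124 after centring. The unit of 12 purines was at 0.071 and 0.111. AAGGAG, the satellite with the highest level, differed least, at 0.896 and 0.911.

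The 5 units with a C lay between 0.159 and 0.673 in GFP RNAi cells. AAACAC was at 0.159 and 0.186, and AACAC at 0.268 and 0.306. AAGAC was at 0.359 and 0.512, the largest linear difference of any satellite at 0.153. All 3 had more in KDM4A RNAi cells. The G+C-rich dodeca satellite, with a unit of 12 bases, was at 0.673 and 0.732, and its shorter relative of 11 bases at 0.607 and 0.699. Both were near the level of many transposons and differed by less than 1.2-fold.

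The remaining 4 satellites did not go one way. AATAG, the row with the lowest level in the table, was at 0.037 and 0.060, whereas AATAT was at 0.230 and 0.202. The 1.686 satellite was at 0.048 and 0.084, and the 1.688 satellite, known from heterochromatin of the X, was at 0.280 and 0.228. As deposited, these 4 gave the largest increase of the table, 0.81 for 1.686, and the only satellite decreases, -0.19 for AATAT and -0.30 for 1.688.

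Ratios at such levels depend on a pseudocount. With 0.1 added to both values the log2 ratio of 1.686 went from 0.81 to 0.31, that of AATAG from 0.70 to 0.22, that of AAGAGG from 0.65 to 0.42 and that of the 12-purine unit from 0.64 to 0.30, and GYPSY11_LTR, at 0.57, then had the largest increase. The 3 decimals of the table also limit the ratio. Rounding alone allows a fold of 1.72 to 1.78 for 1.686, of 1.59 to 1.66 for AATAG and of 1.11 to 1.14 for AAAAG. For all 14 tandem repeats the range that rounding allows lay on one side of a ratio of 1, and the widest spanned 0.06 log2 units. The same held for 182 of the 185 other rows, so it does not set the tandem repeats apart. Such a range covers the writing of the numbers and no other error. In linear units the tandem repeats, 14 of 199 rows, made up 4.55% of the summed absolute difference over the table. LTR retrotransposons (118 rows) made up 62.4%, non-LTR retrotransposons (36 rows) 20.2% and DNA transposons (21 rows) 10.0%. These shares largely follow the number of rows of each type.

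LTR retrotransposons, which are copied through RNA and flanked by long terminal repeats, hold 118 of the 199 rows. Lists of element names sort them into 3 clades. The lists leave out the rows of BLASTOPIA, Bica, DMTOM1 and DMLTR5, with log2 ratios from -0.18 to 0.24. The 3 clades as listed did not have the same balance of directions. In the Gypsy clade, the largest in flies, 20 of 88 rows were higher and 68 lower. Their median log2 ratio was -0.07, which centring turned to 0.02, with 48 higher and 40 lower. In the Copia clade 2 of 10 were higher and 8 lower, and the median of -0.07 also turned to 0.02, with 7 higher and 3 lower. In the Pao clade 10 of 14 were higher and 4 lower, and the median was 0.04 as deposited and 0.13 centred. Among all 199 rows 33.7% were higher as deposited. Whether the clades differ beyond error cannot be tested on 1 mean per treatment.

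**Figure D3:**
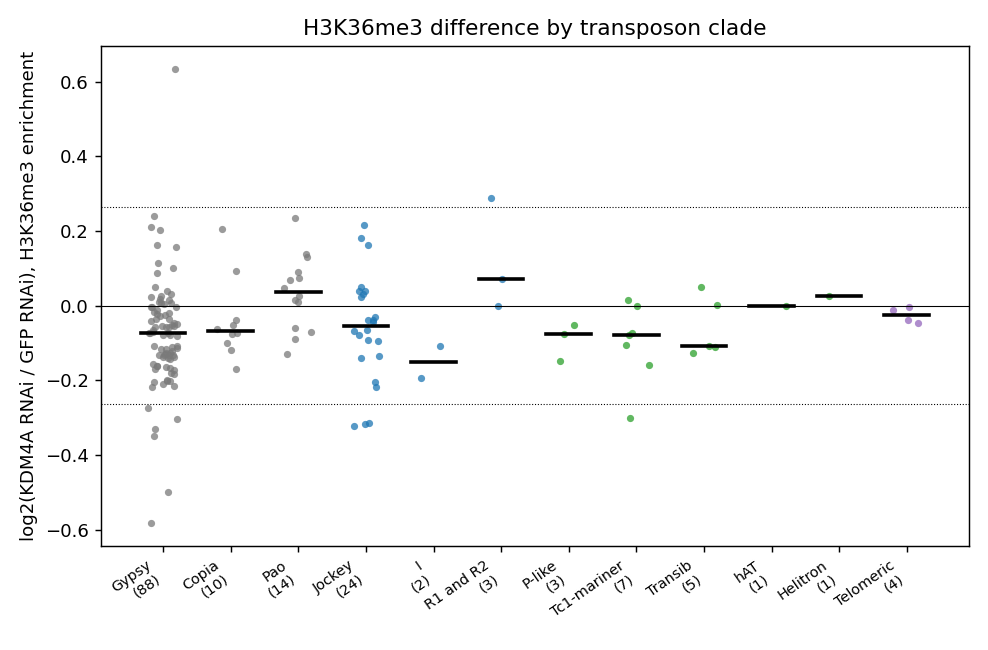
Log2 ratio of H3K36me3 enrichment, KDM4A RNAi over GFP RNAi (y), for rows of 12 transposon clades (x, number of rows in brackets), with medians as bars and dotted lines at 1.2-fold. The Pao rows have a median of 0.04 and the Gypsy rows one of -0.07, which centring of the columns over all rows turns to 0.02. Centring on medians taken without the tandem repeats would move the ratios much less.

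The Pao rows are parts of 7 elements. With the parts of each averaged, 5 elements were higher and 2 lower. MAX was at 1.01 and 1.08, DIVER2 at 1.15 and 1.21, DIVER at 1.09 and 1.13, ROOA at 1.94 and 2.04, and BEL at 2.09 and 2.19. BATUMI, at 1.74 and 1.65, and ROO, at 0.550 and 0.520, went the other way. The elements with higher values differed by a log2 ratio of 0.06 to 0.11 and lay above 1 in both treatments, and ROO had the lowest level of the 7. Counted by element name as deposited, the Gypsy clade had 10 higher and 41 lower of 51, and the Copia clade 1 and 4 of 5. The whole table had 50 higher and 96 lower of 148. In these counts MDG3_DM and LTRMDG3_DM, and likewise DM412 and DM412B, stand as separate elements.

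Within the Gypsy clade the numbered families were not uniform. Of 11 rows of Invader elements 10 were lower, against 65.3% of all rows. Their median was -0.11, which centring brought to -0.02. INVADER5_I was at 1.60 and 1.26, and INVADER4_I, the exception, at 1.79 and 1.81. The 4 Accord rows were all lower, led by ACCORD2_LTR at 0.916 and 0.729, and after centring 2 of them were higher. Of 27 Gypsy-named rows 9 were higher and 18 lower, and after centring 14 and 13. As deposited this was the balance of the whole table, with 33.7% higher and 65.3% lower. These 27 spanned log2 ratios from -0.58 at GYPSY3_LTR (0.938 and 0.627) to 0.63 at GYPSY11_LTR (0.688 and 1.07).

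GYPSY5_I had the largest linear difference in the table. It was at 2.86 in GFP RNAi cells and 3.37 in KDM4A RNAi cells, which moved it from rank 4 to rank 2 of all rows. The next largest linear increases were at JOCKEY2 (2.36 and 2.75), GYPSY11_LTR, ROOA_LTR (1.66 and 1.96) and R1-2_DM (0.904 and 1.11). The largest linear decreases were at FW3_DM (3.02 and 2.62, rank 3 to rank 6), INVADER5_I, GYPSY3_LTR, S2_DM (1.54 and 1.25) and GYPSY9_I (0.892 and 0.631). None of these 10 was a satellite. The satellites are 14 of the 199 rows and of low level, and their largest linear difference was 0.153.

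By row name, both the internal part, which encodes the proteins, and the terminal repeat, which holds the promoter, were found for 51 LTR elements. MDG3_DM and LTRMDG3_DM were each taken as whole and are not among them. The terminal repeat had less H3K36me3 than the internal part in 34 of the 51 in GFP RNAi cells and in 28 in KDM4A RNAi cells. The median difference in level, terminal minus internal, was -0.10 log2 units in GFP RNAi cells and -0.06 in KDM4A RNAi cells. The order of the 2 parts differed between the treatments in 10 elements, all of the Gypsy clade, which holds 37 of the 51. In GFP RNAi cells the gap between the parts of these 10 was widest at GYPSY11, -0.25 log2 units, and narrowest at GYPSY4, -0.002. At a narrow gap a small difference is enough to switch the order.

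The gap between the parts was widest at BLOOD, with 1.39 internally and 0.404 in the terminal repeat in GFP RNAi cells, and 1.39 and 0.411 after KDM4A RNAi. GYPSY5 followed with 2.86 and 1.102 in GFP RNAi cells, then DIVER with 1.48 and 0.704, Copia1 with 1.46 and 0.764 and COPIA2 with 0.822 and 0.430. In all 5 Copia elements the terminal repeat was the lower part in both treatments, with a median gap of -0.57 log2 units in GFP RNAi cells and -0.58 in KDM4A RNAi cells. In GFP RNAi cells each of these gaps was larger than the difference between treatments at either part of the element.

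The difference between treatments varied more over terminal repeats than over internal parts. The number of reads behind each part is unknown, and its bearing on this spread was not tested. The SD of the log2 ratio over the 51 elements was 0.18 for terminal repeats and 0.09 for internal parts, while the medians were -0.06 for both. Without GYPSY3 and GYPSY11 the SDs were 0.14 and 0.09. Of the 51, 4 terminal repeats and 1 internal part differed by at least 1.2-fold, and in no element did both. After centring the numbers were 7 and 1. Over all 56 terminal and 56 internal rows, including those whose other part is not in the table, the contrast was weaker, with 4 and 3 rows past 1.2-fold and SDs of 0.18 and 0.12. Both parts were lower in 27 elements and higher in 8, the internal part alone was lower in 12 and the terminal repeat alone in 4. After centring the balance reversed, with both parts lower in 8 and higher in 22, the internal part alone lower in 8 and the terminal repeat alone in 13.

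**Figure D4:**
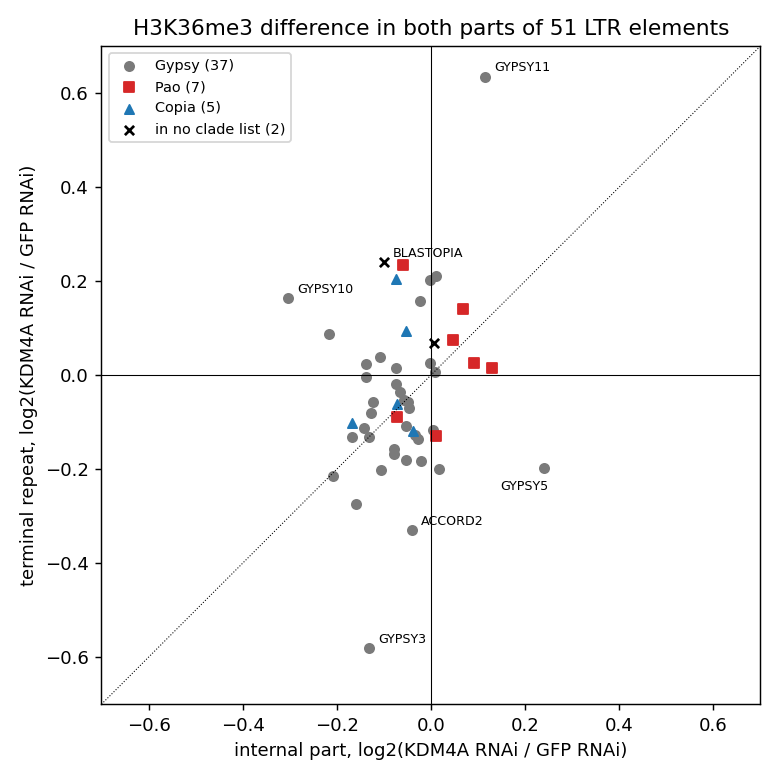
Log2 ratio of H3K36me3 enrichment, KDM4A RNAi over GFP RNAi, of the internal part (x) and the terminal repeat (y) of 51 LTR elements, with symbols by clade and a dotted line where the parts are equal. Internal parts spread from -0.30 to 0.24 and terminal repeats from -0.58 to 0.63.

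The parts differed most at 5 elements, 4 of them Gypsy-named. GYPSY11 was at 0.816 and 0.884 internally and 0.688 and 1.07 in the terminal repeat. GYPSY10 was at 1.24 and 1.01 internally, the 1 internal part past 1.2-fold, and 1.197 and 1.34 in the terminal repeat. GYPSY3 was at 0.920 and 0.840 against 0.938 and 0.627. In these 3 the part with more of the mark in GFP RNAi cells was the part with less after KDM4A RNAi. GYPSY5 was higher internally and lower in its terminal repeat, at 1.102 and 0.961. BLASTOPIA, which is in none of the clade lists, was at 0.898 and 0.838 internally and 0.966 and 1.14 in the terminal repeat. The median absolute difference between the log2 ratios of 2 parts was 0.09 over the 51 elements.

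Non-LTR retrotransposons, which lack terminal repeats, had 13 higher, 22 lower and 1 equal row of 36, with a median of -0.05 that centring turned to 0.04. The Jockey clade held 24 of them, with 8 higher and 16 lower as deposited and 15 higher and 9 lower after centring. Over all 199 rows 33.7% were higher and 65.3% lower as deposited, near the balance of the non-LTR and Jockey rows. All 6 Doc rows were lower, from DOC6_DM at 1.19 and 1.02 to DOC3_DM at 1.1 and 1.07, and after centring 3 of the 6 were higher. All 3 F elements were lower too, and after centring 2 were higher: FW was at 0.946 and 0.921, FW2_DM at 1.62 and 1.58, and FW3_DM as given above.

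G elements split evenly as deposited, with 4 of 8 rows higher, and 5 after centring. G3_DM was at 0.860 and 0.691 and G7_DM at 0.834 and 0.671, while G6_DM was at 0.683 and 0.774 and G_DM at 0.554 and 0.620. The first pair were past 1.2-fold lower and the second pair past 1.1-fold higher. Of the BS elements BS4_DM, at 0.755 and 0.604, had the lowest log2 ratio of the Jockey clade, -0.32, and JOCKEY2 the highest, 0.22. The original Jockey row, was at 0.479 and 0.490, far below JOCKEY2.

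The other non-LTR clade lists were small, and R1 and R2 share a list. I_DM, the I element of hybrid dysgenesis, was at 0.629 and 0.550 and its relative IVK_DM at 0.873 and 0.810, and both remained lower after centring. R1_DM was at 0.638 and 0.671, R1-2_DM at 0.904 and 1.11 and R2_DM, which also inserts into ribosomal RNA genes, at 0.580 in both. The 3 DMRT1 rows, which are in none of the clade lists, were all slightly higher, by log2 ratios of 0.01 to 0.10. The rDNA row was at 0.330 and 0.320, below R1_DM, R1-2_DM and R2_DM.

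DNA transposons, which move by excision or by a rolling circle, had the narrowest spread of the 3 large transposon types. Of 21 rows 5 were higher, 15 lower and 1 equal, with a median of -0.08 that centring turned to 0.01. None was as much as 1.1-fold higher and 3 were at least 1.1-fold lower: S2_DM, BARI_DM at 0.488 and 0.437, and PROTOP_B at 1.72 and 1.55. Over all rows 33.7% were higher and 65.3% lower by any amount, and 12.1% were at least 1.1-fold higher and 20.6% lower. After centring 2 of the 21, LOOPER1_DM (0.780 and 0.829) and Transib1, were at least 1.1-fold higher, and S2_DM alone was lower by as much. The SD of the log2 ratio was 0.09 over these rows, against 0.15 for LTR and 0.15 for non-LTR rows. Their median level in GFP RNAi cells was also higher, at 1.29 against 0.912 for LTR and 0.892 for non-LTR rows. Rows of higher level differed less over the whole table, as given below, so the spread is not set apart from level here.

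Levels differed far more among DNA transposons than between treatments. TC1_DM was at 2.40 and 2.40, MARINER2_DM at 2.17 and 2.05 and TC1-2_DM at 1.91 and 1.93, the high end of the Tc1-mariner group. HOBO, a hAT element, was at 0.400 and 0.400, the lowest of the type, and BARI_DM next. DNAREP1_DM, a very abundant non-autonomous Helitron-type element, was at 1.80 and 1.83. Of 5 Transib rows 3 were lower and 2 higher, from TRANSIB3 at 1.59 and 1.46 to Transib1 at 1.39 and 1.44. The 3 P-like rows were all lower, as were 65.3% of all rows, and after centring 2 of the 3 were higher.

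The 3 telomeric families HeT-A, TAHRE and TART (4 rows), which lengthen the chromosome ends of flies, had the highest median level of any type, 2.73 in GFP RNAi cells and 2.68 in KDM4A RNAi cells, and the smallest SD of the log2 ratio, 0.02. TART_B1 kept rank 1 in both treatments, and TART passed from rank 2 to rank 3 behind GYPSY5_I. All 4 log2 ratios were below 0, from -0.05 to -0.003, and all 4 were above 0 after centring. Rows of high level differed less over the whole table too, as given below.

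The histone rows stand for genes of a tandem array, of which the RefSeq annotation of Release 6 names 23 copies of His1, 20 of His2A, 23 of His2B, 23 of His3 and 22 of His4. Levels ran from 0.680 to 0.881 in GFP RNAi cells and from 0.664 to 0.817 in KDM4A RNAi cells. His1, the linker histone, was at 0.881 and 0.817, His2A at 0.690 and 0.664, His2B at 0.735 and 0.678, and His4 at 0.800 and 0.730. His3 alone was higher, at 0.680 and 0.746, and His2A joined it after centring. As deposited none of the 5 differed by as much as 1.1-fold, as was the case in 67.3% of all rows, and after centring His3 did, with a log2 ratio of 0.22.

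The size of the difference varied with the level of the mark. In 4 equal parts of the table ordered by the mean of both treatments, the median absolute log2 ratio was 0.13 in the lowest, then 0.11, 0.08 and 0.05 in the highest. Without the tandem repeats, 12 of which were in the lowest part, the order was unchanged, at 0.11, 0.10, 0.08 and 0.05. In linear units the median absolute difference was 0.039, 0.057, 0.063 and 0.057, so the upper 3 parts of the table were near each other.

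**Figure D5:**
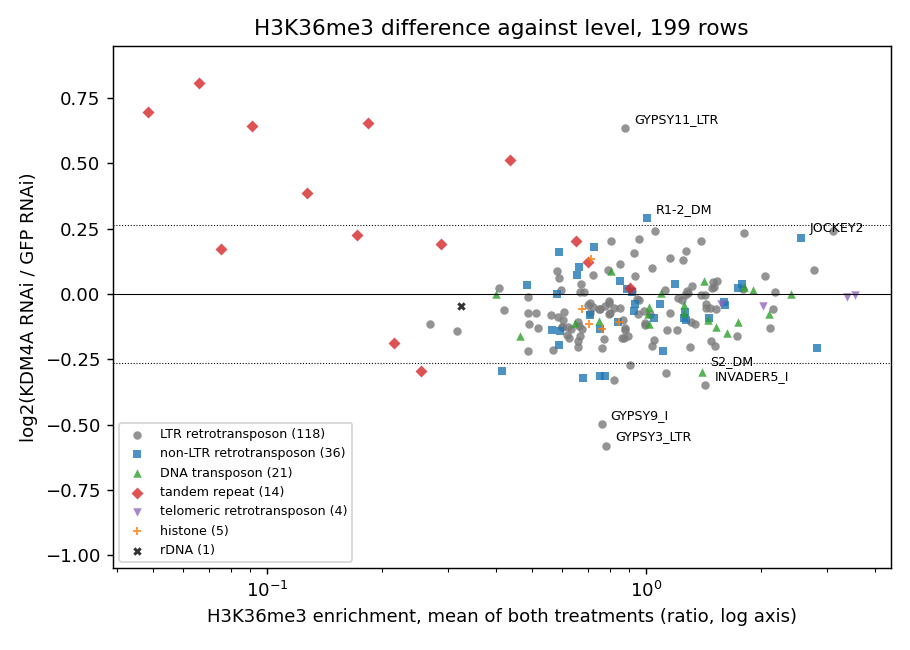
Log2 ratio of H3K36me3 enrichment, KDM4A RNAi over GFP RNAi (y), against the mean enrichment of both treatments (x, ratio, log axis) for 199 rows by type, with dotted lines at 1.2-fold. The rows farthest from 0 at the left are tandem repeats, and those at the right, above a level of 1.28, all lie between -0.35 and 0.24.

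Few rows passed an enrichment of 1, the level of no enrichment over the authors' reference. In GFP RNAi cells 80 rows lay above 1 and in KDM4A RNAi cells 76. From above 1 to 1 or below went 9 rows, among them PROTOP (1.04 and 1.00), PROTOP_A (1.04 and 0.986), M4DM (1.06 and 0.974) and GYPSY5_LTR. From 1 or below to above 1 went 5: GYPSY11_LTR, R1-2_DM, BLASTOPIA_LTR, STALKER2_LTR (0.888 and 1.03) and GYPSY8_I (0.996 and 1.07). The reference behind the ratio is not given in the sources used here, so the meaning of 1 rests on the word enrichment in the table.

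All 199 rows could be set beside H3K9me3, the mark of silent heterochromatin, in the same cells. Both marks may share input libraries, so the values are given side by side. Among the 12 rows at least 1.2-fold lower in H3K36me3, the H3K9me3 values of the Gypsy-clade rows were 3.10 in GFP RNAi cells and 2.48 in KDM4A RNAi cells at GYPSY3_LTR, 2.93 and 2.57 at GYPSY9_I, 3.06 and 2.84 at GYPSY10_I, 2.37 and 2.00 at GTWIN_LTR, 3.75 and 3.83 at ACCORD2_LTR, and 2.76 and 2.83 at INVADER5_I. The non-LTR rows were at 2.23 and 2.03 (BS4_DM), 1.51 and 1.33 (ALUII_DM), 3.20 and 3.30 (G3_DM), and 4.99 and 5.01 (G7_DM). S2_DM was at 2.48 and 2.30 and the 1.688 satellite at 0.967 and 0.943. Of the 8 rows at least 1.2-fold higher in H3K36me3, GYPSY11_LTR was at 2.61 and 3.82 in H3K9me3 and R1-2_DM at 3.46 and 4.61. AATAG was at 0.176 and 0.31, AAGAGG at 0.351 and 0.237, and AAGAC at 2.46 and 1.08. AAGAG was at 0.205 and 0.19, and the unit of 12 purines at 0.18 and 0.179. The 1.686 satellite had an H3K9me3 log2 ratio of -0.25. AAGGAG, past 1.2-fold in neither direction in H3K36me3, was at 8.19 and 1.37 in H3K9me3. No count of shared directions is drawn from these values, because of the inputs the marks may share. Split into 3 parts by their H3K9me3 level, the 175 rows of LTR, non-LTR and DNA transposons had median H3K36me3 log2 ratios of -0.06 in the lowest part, -0.08 in the middle and -0.05 in the highest. Their median H3K36me3 levels in GFP RNAi cells were 0.819, 0.970 and 1.01. Inputs that the marks may share bear on these levels too, and whether they account for the order was not tested.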

How the data were processed

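H3K36me3 ChIP-seq was done on S2 cells after KDM4A or GFP RNAi, with 2 libraries per group, numbered 3 and 4 in the labels. The authors deposited 1 table per antibody with a linear enrichment ratio per repeat row and treatment, a mean per the file headers, given to 3 decimals. The submitters' processing notes list Bowtie and MACS2, with neither a version nor a role. Not given in the sources used here are the build, the repeat library, the handling of multiply mapping reads, the denominator and the depth scaling. Total reads are unknown, so no interval or detection limit can be given, and no genome positions are stated.

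Each KDM4A RNAi mean was divided by its GFP RNAi mean and the log2 taken, without a pseudocount because no value was 0, in Python 3.11.15 with pandas 2.3.3, and checked on simulated columns with known ratios. No test was possible on 1 mean per treatment. Clades were assigned from element names by 12 lists, which took in 162 rows. G5A_DM and DM412B_LTR were given the clades of G5 and DM412. The members and lists were chosen with earlier results of these data known. The smaller families (Invader, Accord, Doc, F, G, BS, DMRT1), the unit features of satellites and the 3 parts by H3K9me3 level were chosen after the values were seen.

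Named rows were all of the tandem, telomeric, histone and rDNA types, the 5 largest log2 ratios and linear differences each way, the 5 highest levels, the extremes of each clade, and the 5 elements whose parts differed most in level or in log2 ratio. Rows outside this rule, chosen after their values were seen, are the others listed past 1.2-fold, the other Pao rows, the Doc, F, G and BS rows, the DMRT1 rows, Jockey, R1_DM, MARINER2_DM, TC1_DM, BARI_DM, LOOPER1_DM, INVADER4_I, PROTOP_A, M4DM, STALKER2_LTR and GYPSY8_I. Alternatives were centring each column on its median, pseudocounts of 0.1 and 1, rows at or above the median level, 1 value per element, means, other folds, leaving out tandem repeats and, chosen after seeing the data, leaving out GYPSY3 and GYPSY11.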

Additional observations from a re-analysis of the deposited data

How the results depend on the processing

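No paired analysis was possible because the table holds 1 mean per treatment, and for the same reason no replicate could be left out. Without replicates a change of setting has no spread to be set against, so values are given as they came out, and the cause was not tested except that centring subtracts -0.089 from every log2 ratio and a larger pseudocount shrinks it. The column medians were 0.898 and 0.844 over all rows, but 0.919 and 0.916 without the tandem repeats. The reversals below are those of the former, and centring on the latter would move the ratios much less. Centring over all rows gave 124 rows higher and 75 lower, 19 and 2 at 1.2-fold, and a median over all rows of 0.035, reversed. By type it gave medians, with the direction reversed, of 0.014 (DNA), 0.029 (LTR), 0.036 (non-LTR), 0.045 (rDNA) and 0.064 (telomeric), and of -0.019 (histone) and 0.304 (tandem) without reversal. By clade it reversed Gypsy (0.016), Copia (0.023), Jockey (0.036), P-like (0.014), Tc1-mariner (0.012) and Telomeric (0.064), and gave 0.126 for Pao, -0.061 for I, 0.162 for R1 and R2, -0.019 for Transib, 0.0895 for hAT and 0.116 for Helitron. Among 65 named rows it reversed 11: BLOOD_I (0.086), COPIA2I_DM (0.018), COPIA2LTR_DM (0.028), Copia1-I_DM (0.037), HETA (0.051), His2A (0.034), PROTOP (0.038), TAHRE (0.043), TART (0.077), TART_B1 (0.086) and rDNA (0.045). With rows at or above the median level, 37 were higher and 63 lower, 2 and 4 at 1.2-fold, with medians of -0.039 over all, -0.074 (DNA), -0.021 (LTR), -0.039 (non-LTR), 0.024 (tandem, 1 row left), -0.053 (Gypsy), 0.047 (Pao), -0.064 (Copia), -0.041 (Jockey), 0.290 (R1 and R2), -0.072 (Tc1-mariner) and -0.053 (Transib); the histone, rDNA, I and hAT groups had no row left. A pseudocount of 1 gave -0.025 over all, -0.040 (DNA), -0.026 (LTR), -0.048 (histone), -0.029 (non-LTR), -0.011 (rDNA), 0.043 (tandem), -0.017 (telomeric), -0.032 (Gypsy), 0.022 (Pao), -0.031 (Copia), -0.029 (Jockey), -0.061 (I), 0.029 (R1 and R2), -0.038 (P-like), -0.045 (Tc1-mariner), -0.044 (Transib) and 0.017 (Helitron). A pseudocount of 0.1 gave -0.069 (DNA), -0.055 (LTR), -0.097 (histone), -0.034 (rDNA), 0.160 (tandem), -0.024 (telomeric), 0.035 (Pao), -0.057 (Copia), -0.131 (I), 0.063 (R1 and R2), -0.069 (P-like), -0.074 (Tc1-mariner), -0.097 (Transib) and 0.025 (Helitron). Means in place of medians were -0.030 over all, -0.067 (DNA), -0.055 (LTR), -0.056 (histone), 0.297 (tandem), -0.076 (Gypsy), 0.035 (Pao), -0.039 (Copia), -0.060 (Jockey), 0.121 (R1 and R2), -0.092 (P-like), -0.10 (Tc1-mariner) and -0.059 (Transib). The median over all rows was -0.059 without tandem repeats and -0.037 as a ratio of sums. With 1 value per element it was -0.068 for LTR, -0.077 for Gypsy and 0.069 for Pao. At 1.1-fold 24 rows were higher and 41 lower, and at 1.5-fold 5 and 0. The level of terminal repeats minus internal parts was -0.178 as a mean, -0.087 with a pseudocount of 0.1 and -0.095 for the elements of higher level; the same difference of log2 ratios was 0.022 as a mean and 0.040 for the elements of higher level. Depth is unknown and limits all values.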
